A study of Rattus norvegicus with 9 samples.

Results

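The detoxification enzyme families in this rat spinal cord RNA sequencing study were taken by gene symbol: the protein-coding genes of the cytochromes P450 (Cyp, without Cyp51), aldehyde dehydrogenases (Aldh), flavin monooxygenases (Fmo) and epoxide hydrolases (Ephx), and of the glutathione transferases (Gst and Mgst), sulfotransferases (Sult) and UDP-glycosyltransferases (Ugt). Of 36051 genes in the count table, 145 symbols matched, and the 79 with at least 10 counts in 3 or more libraries are the members described here. They comprise 28 P450, 20 glutathione transferase, 15 aldehyde dehydrogenase, 6 sulfotransferase, 5 flavin monooxygenase, 3 epoxide hydrolase and 2 UDP-glycosyltransferase genes. The count minimum used levels and not differences between groups.

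Spinal cords of wild-type rats were taken on day 3 in 3 groups of 3 libraries each. SCI_ALA rats had a contusion at thoracic segment 9 and were given α-lipoic acid, which is also an enzyme cofactor. SCI_Veh rats had the same contusion and were given normal saline. Sham rats had a sham operation and no contusion. The dose and schedule of α-lipoic acid and the age of the rats are not given in the sources used here, nor is it said whether a group's 3 libraries were made from different rats. What the p-values measure is thus only the spread between these libraries, which may be technical.

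These enzymes chemically alter foreign and endogenous molecules so that they can be inactivated and exported. P450s and flavin monooxygenases add oxygen, aldehyde dehydrogenases oxidise reactive aldehydes to acids, and epoxide hydrolases open epoxides with water. Glutathione transferases, sulfotransferases and UDP-glycosyltransferases then attach glutathione, sulfate or a sugar. The families are best known from the liver, but in neural tissue several members have dedicated roles, such as Cyp46a1 in cholesterol removal from neurons, Ugt8 in the synthesis of myelin galactolipids and Aldh1l1 in the folate metabolism of astrocytes.

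Libraries held 13857771 to 15736132 counts, and scaling factors from the trimmed mean of M values (TMM) lay between 0.8624 and 1.078. Levels are given as TMM-scaled CPM, counts relative to library size, and comparisons between genes as FPKM, which also divides by gene length. Calls came from edgeR's quasi-likelihood test where the p, adjusted by Benjamini-Hochberg over the 16678 genes tested, was below 0.05, and every adjusted p below is of this kind unless another tool is named. SE belongs to the log2 fold change. Of the marker lists, astrocyte genes summed to 2141 ± 163.7 CPM in SCI_ALA, 1676 ± 156.1 CPM in SCI_Veh and 6163 ± 263.3 CPM in sham (SD, n = 3 each). Macrophage and microglia genes summed to 4257 ± 658.5 CPM in SCI_ALA, 5847 ± 513.3 CPM in SCI_Veh and 746.4 ± 27 CPM in sham. Hepatocyte genes summed to only 3.213 ± 0.3107 CPM in SCI_ALA, 2.237 ± 0.7608 CPM in SCI_Veh and 3.905 ± 2.941 CPM in sham.

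Per unit of gene length, Gstp1, a cytosolic glutathione transferase, was the most abundant of the 79 members in every group. It averaged 567 ± 98.5 FPKM in SCI_ALA, 411.8 ± 5.0 FPKM in SCI_Veh and 415.5 ± 151.3 FPKM in sham, or 23.71%, 22.05% and 15.62% of the summed member FPKM in those groups. Gstm1, a cytosolic glutathione transferase of the mu class, was second in both injured groups, with 8.898% in SCI_ALA and 6.961% in SCI_Veh, and 3rd in sham with 8.81%. Ugt8 held 2.018% in SCI_ALA and 4.983% in SCI_Veh, against 14.91% in sham, where it was second. Mgst1, a membrane-bound glutathione transferase, was 3rd in SCI_ALA with 5.518% and 3rd in SCI_Veh with 6.683%, and 12th in sham with 2.49%. Sult1a1, a sulfotransferase of phenols, was 5th in SCI_ALA with 5.195%, 12th in SCI_Veh with 2.54% and 13th in sham with 2.293%.

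The other 66 matching genes stayed under the minimum, 29 of them without a count in any library. They were 42 P450, 6 glutathione transferase, 6 sulfotransferase, 5 UDP-glycosyltransferase, 3 aldehyde dehydrogenase, 3 flavin monooxygenase and 1 epoxide hydrolase genes. Cyp1a1, a P450 that is induced through the aryl hydrocarbon receptor, had 22 counts over the 9 libraries together, and Aldh18a1 had 79, of which 56 were in a single library. Just inside the minimum, the highest count that 3 libraries reached was 10 for Cyp4f4 and Cyp4f5 and 14 for Gsta3, and just outside it was 9 for Cyp11a1 and 8 for Cyp26a1. Cyp4f5 reached 10 counts only in SCI_ALA libraries and Cyp2e1 only in sham libraries, so a difference for these genes was favoured by the minimum itself.

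**Figure D1:**
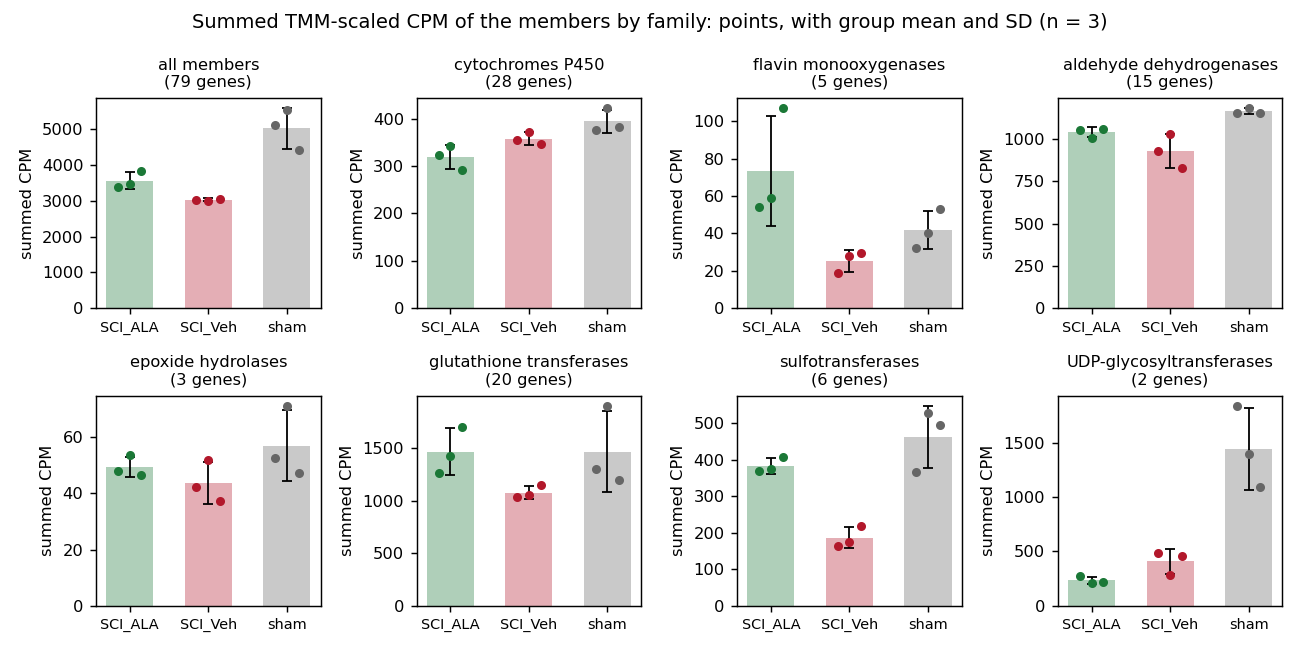
Summed level of each enzyme family, in TMM-scaled CPM on a linear axis from 0, with a point for each library, bars for the group mean and whiskers for the SD (n = 3), and the groups in the order SCI_ALA, SCI_Veh and sham. Sulfotransferase sums of the SCI_ALA libraries lay between 367.5 and 407.5 CPM and those of SCI_Veh between 164.6 and 218.4 CPM.

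Summed over the 79 members, expression was 3566 ± 238.3 CPM in SCI_ALA and 3030 ± 37.99 CPM in SCI_Veh, against 5030 ± 574.3 CPM in sham (SD, n = 3 each). The plot of summed levels by family shows that the UDP-glycosyltransferases, mainly Ugt8, carried most of the gap to sham, with 232.4 ± 32.19 CPM in SCI_ALA and 408 ± 113.4 CPM in SCI_Veh against 1443 ± 378.4 CPM in sham. Sulfotransferases summed to 383 ± 21.42 CPM in SCI_ALA, 185.8 ± 28.67 CPM in SCI_Veh and 462.3 ± 85.18 CPM in sham. Glutathione transferases summed to 1466 ± 222.3 CPM in SCI_ALA, 1077 ± 59.02 CPM in SCI_Veh and 1465 ± 383.4 CPM in sham. For sulfotransferases, glutathione transferases and flavin monooxygenases, all 3 SCI_ALA sums lay above all 3 SCI_Veh sums. For UDP-glycosyltransferases, which also conjugate, and for P450s, all 3 SCI_ALA sums lay below all 3 SCI_Veh sums. The sums of aldehyde dehydrogenases and epoxide hydrolases overlapped. Flavin monooxygenase sums were 73.36 ± 29.32 CPM in SCI_ALA, 25.33 ± 5.929 CPM in SCI_Veh and 41.73 ± 10.4 CPM in sham, and P450 sums were 319.7 ± 25.75 CPM in SCI_ALA, 358.3 ± 13.37 CPM in SCI_Veh and 394.5 ± 24.91 CPM in sham.

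The first comparison, SCI_Veh against sham, gives the change with injury under saline. Of the 79 members, 13 rose (16.5%, against 19.5% of all genes tested) and 29 fell (36.7%, against 18.5% of all genes tested), where 38% of all genes passed in either direction. All 3 SCI_Veh libraries lay above all 3 sham libraries for 15 members (19%, against 25.8% of all genes tested) and below them for 33 (41.8%, against 23.9%). The 29 and the 33 include Cyp2e1, which reached 10 counts only in sham libraries, so its place among the 33 was fixed by the count minimum. The median log2 fold change of the members was -0.42, against 0.00 for all genes tested. Within smaller groups of related enzymes, 3 of 5 mu and 2 of 3 theta glutathione transferases and 2 of 4 sterol P450s fell and 0 rose. Of the 3 microsomal glutathione transferases 2 rose and 1 fell, of the 2 folate dehydrogenases 1 rose and 1 fell, and of 5 retinoic acid enzymes 1 rose and 2 fell. Because bulk tissue was sequenced, fewer cells of a type and less RNA per cell cannot be told apart. All 10 astrocyte markers, 5 of 8 neuron markers and 7 of 9 oligodendrocyte markers fell in the same comparison, and all 8 macrophage and microglia markers rose. The part of these cell type markers in the members' changes was not tested. Sham libraries also differed among themselves in how far long genes were favoured: the correlation of a gene's deviation with its length was 0.238, -0.188 and 0.342 in sham, against 0.118, 0.0517 and 0.0553 in SCI_Veh. Mitochondrial genes took 6.5 to 8.1% of counts in SCI_Veh and 8.59 to 15.7% in sham, and the part of that share was not tested. With the trend with gene length removed, 13 members rose and 30 fell. Of all 16678 genes tested, 3257 (19.5%) then rose and 3592 fell, against 3248 and 3089 without that step.

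**Figure D2:**
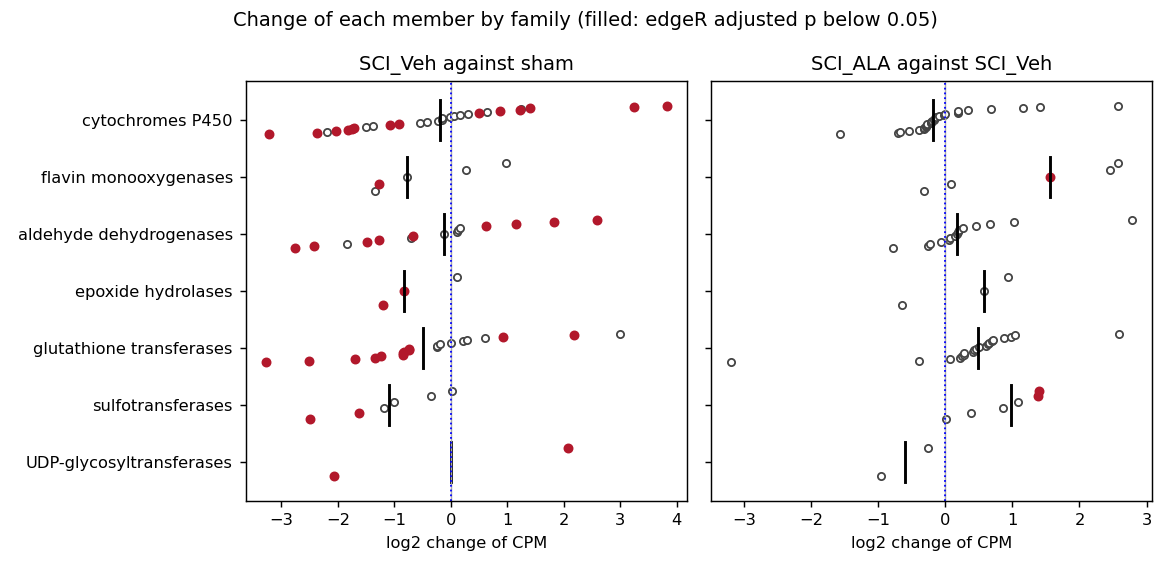
Log2 fold change of each of the 79 members by enzyme family, in a panel for SCI_Veh against sham and another for SCI_ALA against SCI_Veh, with filled points for members whose adjusted p was below 0.05 and black bars at family medians. The median over the 20 glutathione transferases was -0.49 in SCI_Veh against sham and 0.48 in SCI_ALA against SCI_Veh. Both comparisons use the same SCI_Veh libraries, so these medians are not independent.

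Among the aldehyde dehydrogenases 4 of 15 rose and 5 fell. Aldh1a1, which makes retinoic acid from retinaldehyde, had 20.92, 18.35 and 29.09 CPM in SCI_Veh, against 111.5, 210 and 139.7 CPM in sham. Every injured library was below every sham library, and the fall was 6.75-fold (log2 fold change -2.75, SE 0.25, adjusted p = 1.29e-05). Aldh1a2, another retinaldehyde dehydrogenase, had 221.3, 322.2 and 206 CPM in SCI_Veh and 215.8, 198.2 and 254.9 CPM in sham, and did not pass (log2 fold change 0.16, adjusted p = 0.526). Its groups overlapped.

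Aldh1l1, a cytosolic folate enzyme widely used as an astrocyte marker, had 9.786, 6.338 and 5.669 CPM in SCI_Veh, against 45.17, 35.85 and 36.45 CPM in sham. The groups did not overlap, with a fall of 5.38-fold (log2 fold change -2.43, SE 0.23, adjusted p = 1.66e-05). Its mitochondrial relative Aldh1l2 had 3.863, 4.07 and 7.222 CPM in SCI_Veh, against 1.508, 0.554 and 0.3998 CPM in sham, a rise of 6.06-fold (log2 fold change 2.60, SE 0.53, adjusted p = 0.00251). The 2 folate dehydrogenases thus moved in opposite directions, each with every injured library on the same side of sham.

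Aldh5a1, which completes the breakdown of GABA, had 31.16, 19.01 and 30.03 CPM in SCI_Veh and 75.79, 63.16 and 84.43 CPM in sham, a fall of 2.79-fold (adjusted p = 0.000149). Aldh6a1, a mitochondrial enzyme of valine breakdown, fell by 1.27 on the log2 scale (SE 0.13, adjusted p = 2.39e-05), and Aldh3a2, which oxidises fatty aldehydes, fell by 0.66 (SE 0.15, adjusted p = 0.00405). Aldh16a1 rose 2.22-fold (adjusted p = 0.000111), and Aldh7a1, an enzyme of lysine breakdown, rose 1.54-fold (adjusted p = 0.00619). Aldh3b1 rose 3.54-fold (adjusted p = 5.25e-05). Its gene overlaps Unc93b1 on the other strand, which had 13193 counts over the 9 libraries against 1847 for Aldh3b1, and the library kit in the labels does not mark strand, so reads of the overlap cannot be told apart. Aldh2, the main mitochondrial acetaldehyde dehydrogenase, had 220.4, 233.6 and 185 CPM in SCI_Veh and 213.3, 185.2 and 187.6 CPM in sham, with overlapping groups (adjusted p = 0.553).

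Of 28 P450 genes 6 rose and 8 fell. Cyp46a1, the cholesterol 24-hydroxylase of neurons, had 16.61, 16.08 and 16.81 CPM in SCI_Veh, against 59.66, 59.75 and 46.98 CPM in sham. It fell 3.36-fold without overlap (log2 fold change -1.75, SE 0.16, adjusted p = 1.38e-05). Cyp7b1, an oxysterol and steroid 7-hydroxylase, had 26.01, 20.62 and 25.78 CPM in SCI_Veh and 39.86, 55.16 and 41.58 CPM in sham, a fall of 1.89-fold (adjusted p = 0.004). The other sterol P450s, Cyp27a1 and Cyp39a1, did not pass, with log2 fold changes of -0.23 and 0.16 and adjusted p of 0.387 and 0.791.

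Cyp26b1, which breaks down retinoic acid, had 5.215, 3.069 and 2.565 CPM in SCI_Veh, against 21.24, 12.27 and 11.26 CPM in sham, a fall of 4.12-fold (adjusted p = 0.00487). Cyp26c1, of the same subfamily, was called higher, but rested on 3 counts in sham, all in 1 library, and on 0.4724 to 1.738 CPM in SCI_Veh, so no fold is given, and its call was lost without SCI_Veh 1 (adjusted p = 0.0528). Both the retinaldehyde dehydrogenase Aldh1a1 and the retinoic acid hydroxylase Cyp26b1 were thus lower in the SCI_Veh libraries.

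Cyp2d4 had 9.528, 6.872 and 6.479 CPM in SCI_Veh, against 30.36, 22.32 and 28.65 CPM in sham, a fall of 3.55-fold (adjusted p = 7.72e-05), whereas its near relative Cyp2d3 had 14.55, 10.14 and 24.97 CPM in SCI_Veh, against 3.934, 8.864 and 6.13 CPM in sham, a rise of 2.63-fold (adjusted p = 0.00813). Each pair of groups was free of overlap. Reads that fit more than 1 gene of so similar a subfamily may have been split or dropped in counting, so the opposite directions are uncertain, as are changes of the Cyp2j, Cyp3a and Cyp4f genes. Cyp3a9 fell by 2.36 on the log2 scale (SE 0.37, adjusted p = 0.000431) and Cyp2j10 by 1.08 (SE 0.21, adjusted p = 0.00187), and Cyp4f1 and Cyp2e1 were also called lower, each under 7 CPM in every library. The call of Cyp2e1 was lost without SCI_Veh 1, SCI_Veh 2, sham 2 or sham 3, with adjusted p of 0.0507 to 0.0873. Cyp2j4 had 2.902 to 4.571 CPM in SCI_Veh and 4.59 to 6.264 CPM in sham, and Cyp4f4 0.06438 to 0.6749 CPM and 0.4664 to 2.216 CPM, and neither passed (adjusted p = 0.32 and 0.0918).

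Cyp4v3, a fatty acid hydroxylase, rose 1.84-fold (adjusted p = 0.00337). Cyp1b1, a target of the aryl hydrocarbon receptor, had 57.43, 97.34 and 64.32 CPM in SCI_Veh, against 18.29, 27.3 and 48.51 CPM in sham (log2 fold change 1.22, SE 0.37, adjusted p = 0.0244). This call was lost without SCI_Veh 2 (adjusted p = 0.0933), without sham 1 (0.0674) and without sham 2 (0.117). Cyp4b1 had 8.305, 2.202 and 5.062 CPM in SCI_Veh, against 1.18, 0 and 0.3998 CPM in sham (log2 fold change 3.25, SE 0.90, adjusted p = 0.0146), and lost its call without SCI_Veh 1 (adjusted p = 0.0554) or sham 3 (0.0521). Cyp20a1 rose 1.41-fold (adjusted p = 0.0307), with adjusted p of 0.117 without SCI_Veh 1 and 0.0747 without sham 3.

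Among the glutathione transferases 2 of 20 rose and 10 fell, a larger share of members lower than in the P450s. The difference between the families was not tested. Of the mu class, Gstm1 had 162.8, 135.3 and 145.1 CPM in SCI_Veh, against 261.5, 327.2 and 203 CPM in sham, a fall of 1.79-fold (adjusted p = 0.00509). Gstm2 had 87.62, 120.9 and 91.65 CPM in SCI_Veh, against 234.7, 251 and 218.4 CPM in sham, a fall of 2.35-fold (adjusted p = 0.000166). Gstm6, which overlaps the Gstm2 gene model on the same strand, fell 3.23-fold (adjusted p = 0.00158) at under 6 CPM. Gstm4 did not pass (adjusted p = 0.23).

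Of the theta class, Gstt3 had 27.88, 25.89 and 33.88 CPM in SCI_Veh, against 93.36, 278.3 and 128.4 CPM in sham, a fall of 5.70-fold (adjusted p = 0.000924). Gstt1 had 9.786, 9.34 and 4.994 CPM in SCI_Veh and 11.01, 17.02 and 15.53 CPM in sham (log2 fold change -0.85, adjusted p = 0.0335), and lost its call without SCI_Veh 3 (adjusted p = 0.115), sham 2 (0.083) or sham 3 (0.0845). Gsta6 of the alpha class fell 2.52-fold (adjusted p = 0.00138), the kappa enzyme Gstk1 fell 1.67-fold (adjusted p = 0.0148) and the zeta enzyme Gstz1, which acts in tyrosine breakdown, fell 1.67-fold (adjusted p = 0.0072). The Gstz1 gene overlaps Pomt2 on the other strand, with 1787 counts against 3092 for Gstz1, so reads of the overlap cannot be told apart. Gsta3 was called lower at under 2 CPM, and its gene overlaps a gene on the other strand with 18507 counts. Gsta4, known for conjugating the lipid peroxidation product 4-hydroxynonenal, did not pass (log2 fold change -0.24, adjusted p = 0.371). Neither did Gsto1 of the omega class (log2 fold change 0.22, adjusted p = 0.441) or the abundant Gstp1, with 329.2, 314.6 and 322.9 CPM in SCI_Veh and 272, 458.4 and 237 CPM in sham.

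Mgst1 and Mgst2, both membrane-bound, were the 2 glutathione transferases that rose. Mgst2, which can make leukotriene C4, had 14.29, 17.81 and 15.32 CPM in SCI_Veh, against 2.885, 3.324 and 4.265 CPM in sham. All SCI_Veh libraries were above all sham libraries, with a rise of 4.52-fold (log2 fold change 2.18, SE 0.24, adjusted p = 4.14e-05). Mgst1 had 113.6, 130.4 and 117.8 CPM in SCI_Veh, against 66.87, 72.18 and 51.38 CPM in sham, a rise of 1.90-fold (adjusted p = 0.00153). Mgst3, the remaining microsomal gene, went the other way, with 66.89, 49.1 and 61.55 CPM in SCI_Veh, against 97.62, 133.7 and 88.02 CPM in sham, a fall of 1.80-fold (adjusted p = 0.00585).

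Both UDP-glycosyltransferases passed, in opposite directions and by about the same size. Ugt8, which makes the galactocerebroside of myelin and attaches its sugar to a lipid of the cell rather than to a foreign compound, had 419.5, 201.6 and 394.4 CPM in SCI_Veh, against 1827, 1382 and 1072 CPM in sham (log2 fold change -2.08, SE 0.30, adjusted p = 0.000249). Ugt1a1, the bilirubin-conjugating enzyme, had 68.5, 76.59 and 63.44 CPM in SCI_Veh, against 15.01, 17.49 and 16.99 CPM in sham (log2 fold change 2.08, SE 0.17, adjusted p = 7.27e-06). Neither gene's groups overlapped. The Ugt1a locus makes several enzymes with their own first exon and shared later exons, so the counts under Ugt1a1 may hold other Ugt1a forms.

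Among the sulfotransferases 2 of 6 fell. Sult1d1, known in rodents for sulfating catecholamines, had 4.314, 3.536 and 4.657 CPM in SCI_Veh, against 19.41, 26.91 and 24.45 CPM in sham, a fall of 5.65-fold (log2 fold change -2.50, SE 0.21, adjusted p = 8.21e-06). Sult4a1, a brain-enriched member, had 96.7, 92.74 and 149.4 CPM in SCI_Veh, against 279.4, 407.7 and 359.8 CPM in sham, a fall of 3.09-fold (adjusted p = 0.000123). Neither gene's groups overlapped. Sult1a1 and Sult2b1, which sulfates cholesterol, did not pass (adjusted p = 0.242 and 0.0785).

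Of the 5 flavin monooxygenases only Fmo1 fell, with 6.438, 9.741 and 6.142 CPM in SCI_Veh, against 17.77, 16.86 and 19.19 CPM in sham, or 2.41-fold (log2 fold change -1.27, SE 0.24, adjusted p = 0.00169). Fmo2 and Fmo5 had log2 fold changes of -0.78 and 0.98 (adjusted p = 0.36 and 0.168). Of the epoxide hydrolases Ephx2, the soluble enzyme that removes epoxides of fatty acids, had 14.61, 15.01 and 16.67 CPM in SCI_Veh and 24.78, 41.31 and 16.79 CPM in sham (log2 fold change -0.84, SE 0.28, adjusted p = 0.0345). That call rested on a narrow gap and was lost when any library of SCI_Veh or sham 1 or sham 2 was left out, with the adjusted p reaching 0.142 without sham 2. Ephx4 fell 2.29-fold (adjusted p = 0.0161), a call that was lost without SCI_Veh 1 (adjusted p = 0.0631) or SCI_Veh 3 (0.0538), and Ephx1, the microsomal enzyme, did not pass (adjusted p = 0.745).

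**Figure D3:**
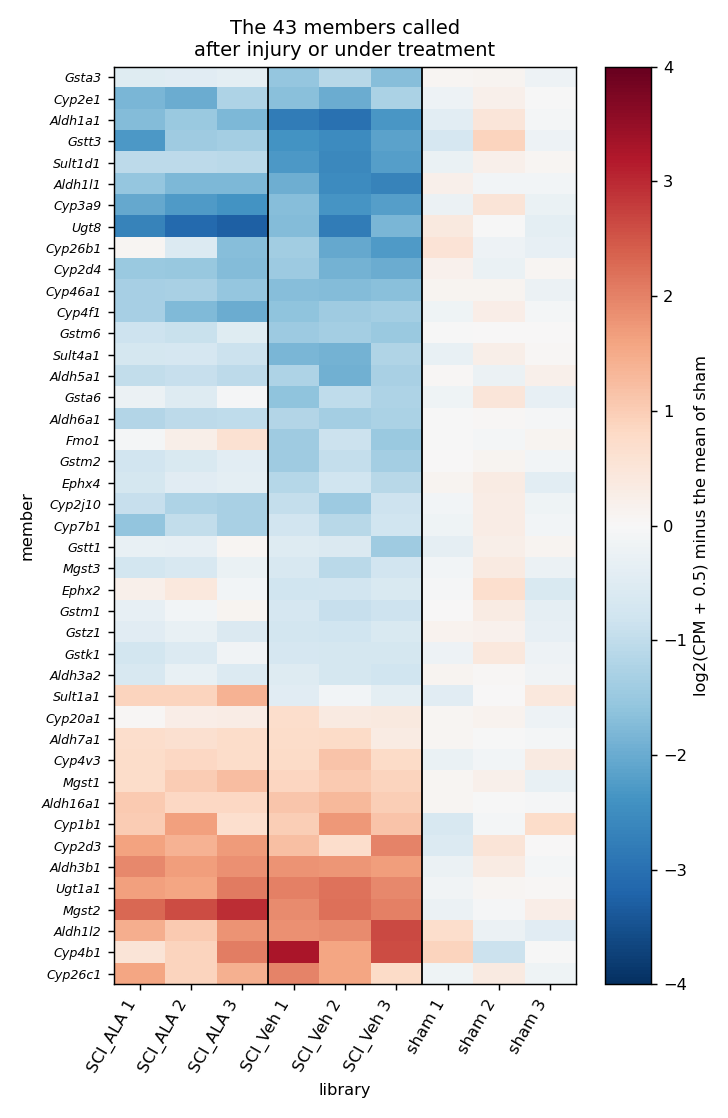
Heat map of the 43 members called in SCI_Veh against sham or in SCI_ALA against SCI_Veh, a row each, ordered by their change in SCI_Veh against sham, with a column for each library. Colour gives log2(CPM + 0.5) minus the mean of sham (red higher, blue lower), with Ugt8, Aldh1a1 and Sult1d1 lower, and Mgst2 and Ugt1a1 higher, in all 6 injured libraries than in all 3 sham libraries.

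The second comparison, SCI_ALA against SCI_Veh, gives the difference that went with α-lipoic acid after injury. It uses the SCI_Veh libraries of the first comparison, so it is not independent of the first. Spread in those libraries alone can give opposite signs in both. The edgeR test called 3 members higher, Sult1a1, Sult1d1 and Fmo1 (3.8% of members, against 0.0779% of all genes tested), and 0 lower (against 0.042% of all genes tested), where 0.12% of all genes passed in either direction. At an unadjusted p below 0.05 there were 25 of 79 members (31.6%) and 2050 of all 16678 genes tested (12.3%). DESeq2 called 11 members higher and 1 lower of the 72 to which it gave an adjusted p, and 223 genes higher (1.42%) and 163 lower (1.04%) of the 15702 with one. The 11 were Gstm1, Gstm2, Gsta4, Gsta6, Sult1a1, Sult1d1, Sult4a1, Aldh1a1, Aldh3a1, Fmo1 and Fmo2. Each of the 3 called by edgeR was 2.61 to 2.96 times as high in SCI_ALA, and its adjusted p was 0.0483, close to the threshold. The promoters of these 3 genes are printed because edgeR called them. That of Gstp1 is printed because it is the most abundant member and holds both motifs searched. Sequences are from RefSeq on build GRCr8, from 250 bases before to 50 bases after the start, written 5′ to 3′ along the gene.
Sult1a1: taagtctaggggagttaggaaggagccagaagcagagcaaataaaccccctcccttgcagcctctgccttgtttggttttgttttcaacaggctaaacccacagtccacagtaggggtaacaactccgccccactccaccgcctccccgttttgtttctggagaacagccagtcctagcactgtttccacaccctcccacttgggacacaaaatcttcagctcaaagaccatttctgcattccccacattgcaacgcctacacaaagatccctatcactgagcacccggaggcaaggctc
Sult1d1: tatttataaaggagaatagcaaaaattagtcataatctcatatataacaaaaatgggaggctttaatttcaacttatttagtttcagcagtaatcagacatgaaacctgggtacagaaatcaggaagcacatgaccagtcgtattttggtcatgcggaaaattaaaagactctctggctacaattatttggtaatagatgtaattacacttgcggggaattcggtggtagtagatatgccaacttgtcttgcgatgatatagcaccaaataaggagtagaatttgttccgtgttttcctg
Fmo1: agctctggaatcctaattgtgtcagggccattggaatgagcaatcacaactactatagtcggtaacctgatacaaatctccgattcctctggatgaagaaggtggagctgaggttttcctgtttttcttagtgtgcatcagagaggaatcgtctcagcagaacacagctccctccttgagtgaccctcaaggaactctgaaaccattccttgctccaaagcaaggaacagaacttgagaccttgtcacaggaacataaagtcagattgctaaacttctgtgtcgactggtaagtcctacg
Gstp1: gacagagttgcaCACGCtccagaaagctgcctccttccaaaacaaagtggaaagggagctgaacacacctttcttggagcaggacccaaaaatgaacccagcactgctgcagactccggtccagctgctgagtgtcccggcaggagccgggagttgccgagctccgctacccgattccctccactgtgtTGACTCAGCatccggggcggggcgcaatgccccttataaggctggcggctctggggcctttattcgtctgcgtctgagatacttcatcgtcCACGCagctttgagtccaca
They lie at chr1:190706063-190706362 (minus strand, Sult1a1), chr14:20720829-20721128 (plus strand, Sult1d1), chr13:77747617-77747916 (minus strand, Fmo1) and chr1:210769656-210769955 (minus strand, Gstp1). Capitals mark matches, on either strand, to GCGTG, the core to which the aryl hydrocarbon receptor binds, and to TGACNNNGC, the antioxidant response element, which NRF2 binds. The motifs do not overlap in Gstp1, where GCGTG matched on the minus strand at positions -238 and 31 and TGACNNNGC on the plus strand at -61, counted from the start. The Sult1a1, Sult1d1 and Fmo1 windows hold neither run of letters. Promoters were found by symbol for 59 of the 79 members, of which 25 (42.4%) hold GCGTG and 9 (15.3%) TGACNNNGC, against 9939 (29.7%) and 4038 (12.1%) of 33469 rat promoters of the same length. The 33469 were not limited by gene type or by counts, as the members were, so unlike sets are compared. The difference was not tested.

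Sult1a1 (chromosome 1, 198100586 to 198104109, minus strand, Rnor_6.0) had 134.7, 136.2 and 190.5 CPM in SCI_ALA, against 52.86, 68.19 and 55.88 CPM in SCI_Veh. The lowest SCI_ALA library was above the highest SCI_Veh library, and the rise was 2.61-fold (log2 fold change 1.38, SE 0.23, adjusted p = 0.0483). Sham libraries had 53.17, 73.76 and 98.42 CPM, so the SCI_ALA libraries were also above all sham libraries, at 2.05-fold (adjusted p = 0.00441). Among these 3 members, Sult1a1 was the 1 without a call in SCI_Veh against sham.

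Sult1d1 (chromosome 14, 22091777 to 22126021, plus strand) had 11.05, 10.97 and 10.92 CPM in SCI_ALA, against 4.314, 3.536 and 4.657 CPM in SCI_Veh (log2 fold change 1.40, SE 0.21, adjusted p = 0.0483). The 3 SCI_ALA libraries were close together and above all SCI_Veh libraries, yet still below the sham libraries given above, by 2.15-fold (adjusted p = 0.00153). Fmo1 (chromosome 13, 80712882 to 80745347, minus strand), which oxidises nitrogen and sulfur atoms, had 17.02, 21.24 and 27.88 CPM in SCI_ALA, against 6.438, 9.741 and 6.142 CPM in SCI_Veh, a rise of 2.96-fold (log2 fold change 1.57, SE 0.24, adjusted p = 0.0483). Its SCI_ALA and sham libraries overlapped (log2 fold change 0.30, SE 0.24, adjusted p = 0.361).

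All 3 calls ended when any SCI_ALA or SCI_Veh library was left out, with adjusted p of 0.0645 to 0.215, and the log2 fold changes stayed between 1.2 and 1.82. Sham 3 is in neither group compared, but it enters the shared spread, the count filter and the scaling. Without sham 3, the adjusted p was 0.0507 for Sult1a1 and Sult1d1 and 0.0562 for Fmo1. Without sham 1 it was 0.0628 for Fmo1. Without sham 2 the test called 6 members higher, where it called 52 of all genes (0.304%) higher. Libraries differed in how far short genes were favoured: the correlation of a gene's deviation with its length was 0.0328, -0.285 and -0.46 in SCI_ALA and 0.118, 0.0517 and 0.0553 in SCI_Veh. With the trend removed, Sult1d1 and Fmo1 kept their calls (adjusted p = 0.035 and 0.0382) and Sult1a1 did not (log2 fold change 1.23, adjusted p = 0.0596). Erythroid genes summed to 823.8, 1569 and 2894 CPM in SCI_ALA and 476.1, 524.8 and 1493 CPM in SCI_Veh, and neuron markers to 2299 ± 312.1 and 1674 ± 366.1 CPM, with 0 genes of either list called. Astrocyte markers summed to 2163, 2292 and 1967 CPM in SCI_ALA and 1853, 1558 and 1618 CPM in SCI_Veh, and ependyma markers to 7.973, 6.107 and 7.28 CPM in SCI_ALA and 3.283, 2.869 and 4.387 CPM in SCI_Veh. Macrophage and microglia markers summed to 3770, 3995 and 5006 CPM in SCI_ALA and 5934, 6311 and 5296 CPM in SCI_Veh. The SCI_ALA sums were thus above all SCI_Veh sums for astrocytes and ependyma and below them for macrophages and microglia, with 0 genes of these lists called. The part of these markers in the result was not tested.

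**Figure D4:**
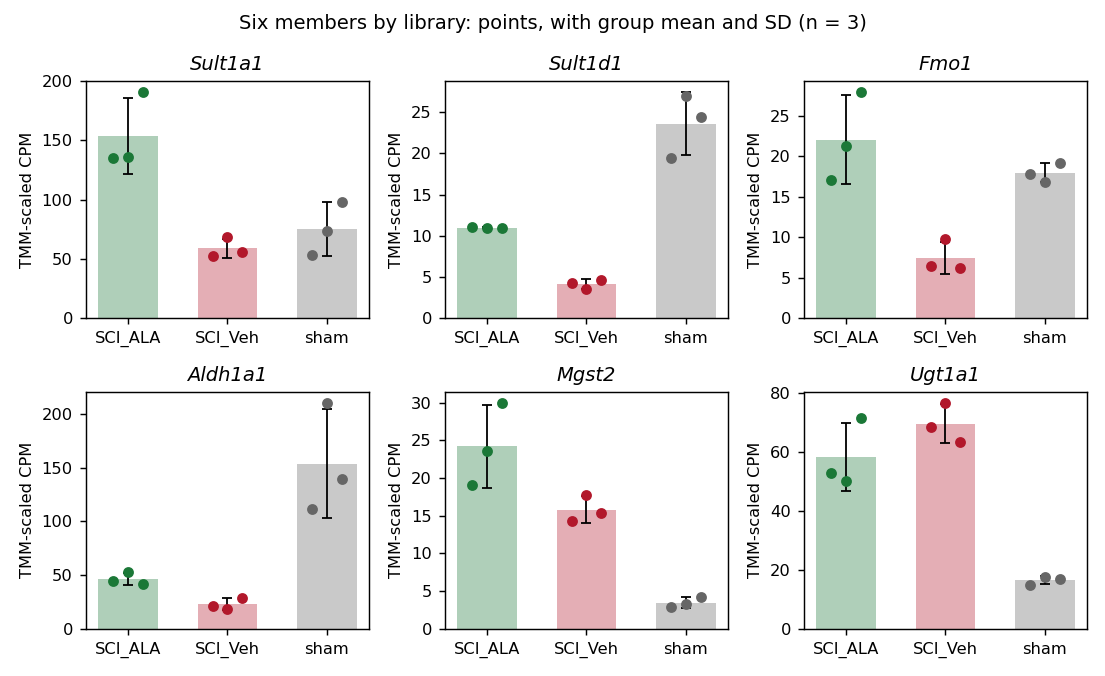
TMM-scaled CPM of Sult1a1, Sult1d1, Fmo1, Aldh1a1, Mgst2 and Ugt1a1, with a point for each library and bars and whiskers for the mean and SD of SCI_ALA, SCI_Veh and sham (n = 3 each). For Sult1a1, Sult1d1 and Fmo1, every SCI_ALA library lies above every SCI_Veh library.

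Across the members, 26 of 79 (32.9%) had all 3 SCI_ALA libraries above all 3 SCI_Veh libraries, against 11.6% of all genes tested, and 4 (5.06%) had them below, against 12.2%. With the trend with gene length removed, a setting chosen for this count after the data were seen, the counts were 23 (29.1%, against 10.2%) above and 3 (3.8%, against 12.6%) below. The median log2 fold change was 0.19 for members and -0.01 for all genes tested. By family, the members above were 11 glutathione transferases, 5 aldehyde dehydrogenases, 3 each of sulfotransferases and flavin monooxygenases, and 2 each of P450s and epoxide hydrolases. The 26 include the P450 Cyp4f5, which reached 10 counts only in SCI_ALA libraries, so its place there was fixed by the count minimum.

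Of the glutathione transferases 18 of 20 had a positive log2 fold change, with a median of 0.48, and 0 passed in edgeR. DESeq2 called 4 of them higher, Gstm1, Gstm2, Gsta4 and Gsta6, where it called 1.42% of all genes higher. Gsta4 had 66.39, 96.68 and 70.4 CPM in SCI_ALA, against 33.54, 40.76 and 43.87 CPM in SCI_Veh (log2 fold change 0.98, SE 0.20, adjusted p = 0.101). Without sham 2 the adjusted p of Gsta4 was 0.0413. Gsta6 had 26.87, 22.14 and 30.63 CPM in SCI_ALA, against 10.17, 15.41 and 13.3 CPM in SCI_Veh (log2 fold change 1.03, SE 0.25, adjusted p = 0.144, but 0.0485 without sham 2). Neither gene's groups overlapped, as was also the case for Gstm1, Gstm2, Gstm6, Gstp1, Gstt1, Gstt2, Gstz1, Mgst2 and the low Gsta3. Gstm1 had 204.1, 237.7 and 279.3 CPM in SCI_ALA, against 162.8, 135.3 and 145.1 CPM in SCI_Veh (log2 fold change 0.70, adjusted p = 0.184), and Gstp1 had 397, 398.7 and 528.4 CPM in SCI_ALA, against 329.2, 314.6 and 322.9 CPM in SCI_Veh (log2 fold change 0.45, adjusted p = 0.452). Glutathione transferase genes are short, with a median of 1132.5 bases against 2240 for all genes tested, and their median log2 fold change was 0.31 with the length trend removed. Gstm3, named after its values were seen, had 1.996, 2.669 and 100.5 CPM in the SCI_Veh libraries and 2.613 to 4.442 CPM in SCI_ALA, a difference that lay in SCI_Veh 3 alone.

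All 6 sulfotransferases had a log2 fold change above 0, with a median of 0.97. Sult4a1 had 211.9, 214.4 and 188.1 CPM in SCI_ALA, against 96.7, 92.74 and 149.4 CPM in SCI_Veh, without overlap (log2 fold change 0.86, SE 0.21, adjusted p = 0.15). Sult2b1 had 0.9716 to 3.091 CPM in SCI_ALA and 1.215 to 1.803 CPM in SCI_Veh, with overlap. Among the flavin monooxygenases, Fmo2 had 10.45, 7.843 and 27.95 CPM in SCI_ALA, against 1.738, 2.402 and 3.577 CPM in SCI_Veh (log2 fold change 2.58, SE 0.64, adjusted p = 0.16). Its groups did not overlap, and it was highest in SCI_ALA 3, the library that most favoured short genes. The 5 flavin monooxygenases had a median length of 2330 bases, against 2240 for all genes tested. Their median log2 fold change was 1.57, and 1.55 with the length trend removed. What gene length contributed to the value of Fmo2 was not tested. Fmo5 overlapped between the groups (adjusted p = 0.843).

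Aldh1a1 had 44.69, 52.82 and 42.17 CPM in SCI_ALA, against 20.92, 18.35 and 29.09 CPM in SCI_Veh (log2 fold change 1.03, SE 0.24, adjusted p = 0.14). Without sham 2 the adjusted p of Aldh1a1 was 0.0452. Aldh1l1 (log2 fold change 0.67, adjusted p = 0.268), Aldh5a1 (0.46, adjusted p = 0.368), Aldh6a1 (0.19, adjusted p = 0.579) and the low Aldh3a1 (2.79, adjusted p = 0.165) also had every SCI_ALA library above every SCI_Veh library. Aldh1l2 had them below, at 2.881, 2.082 and 3.846 CPM in SCI_ALA, against 3.863, 4.07 and 7.222 CPM in SCI_Veh (adjusted p = 0.542). Ephx2 had 30.01, 34.7 and 23.7 CPM in SCI_ALA, against 14.61, 15.01 and 16.67 CPM in SCI_Veh (log2 fold change 0.93, SE 0.28, adjusted p = 0.222), whereas Ephx1 had 15.14, 15.41 and 19.3 CPM in SCI_ALA and 25.56, 34.29 and 18.43 CPM in SCI_Veh (log2 fold change -0.65, adjusted p = 0.278).

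For the P450s the median log2 fold change was -0.18, with 8 of 28 genes positive and 0 called. Cyp46a1 had 21.77, 22.21 and 18.41 CPM in SCI_ALA, against 16.61, 16.08 and 16.81 CPM in SCI_Veh (log2 fold change 0.33, adjusted p = 0.427), and Cyp26b1 had 15.21, 9.716 and 4.052 CPM in SCI_ALA, against 5.215, 3.069 and 2.565 CPM in SCI_Veh, with overlap (adjusted p = 0.251). Cyp7b1, Cyp27a1, Cyp1b1, Cyp4b1 and Cyp2j4 had negative log2 fold changes between -1.58 and -0.15 and adjusted p of 0.461 or more. Ugt8 had 216.8, 162.2 and 143.7 CPM in SCI_ALA and 419.5, 201.6 and 394.4 CPM in SCI_Veh, overlapping by a single library (log2 fold change -0.96, SE 0.29, adjusted p = 0.218), and was the member that DESeq2 called lower. Ugt1a1 overlapped between the groups (log2 fold change -0.26, adjusted p = 0.557).

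The third comparison sets the same SCI_ALA libraries against the same sham libraries, so it is not independent of the other comparisons. Of the 79 members 16 rose (20.3%, against 17.3% of all genes tested) and 18 fell (22.8%, against 15.8% of all genes tested), where 33.1% of all genes passed in either direction, and their median log2 fold change was -0.20, against -0.01 for all genes tested. With the trend with gene length removed, the medians were -0.375 for members and -0.07 for all genes tested, with 14 members higher and 23 lower. Of all 16678 genes tested, 2709 (16.2%) were then higher and 3167 lower, against 2885 and 2640 without that step. Of the 20 glutathione transferases, 2 were then higher and 6 lower, against 4 higher and 3 lower without that step. All 3 SCI_ALA libraries lay above all 3 sham libraries for 17 members (21.5%, against 23.4% of all genes tested) and below them for 27 (34.2%, against 22.4%). The 18 and the 27 include Cyp2e1, whose place among the 27 was again fixed by the count minimum. The lowest relative to sham, among members with at least 50 counts on average, were Ugt8 (log2 fold change -3.03, SE 0.31, adjusted p = 3.53e-05) and Cyp3a9 (-2.58, SE 0.37, adjusted p = 0.000339). Gstt3 (-1.79, adjusted p = 0.00611), Aldh1l1 (-1.76, adjusted p = 0.000152), Aldh1a1 (-1.72, adjusted p = 0.000281), Cyp2d4 (-1.64, adjusted p = 0.00021), Cyp46a1 (-1.42, adjusted p = 6.81e-05), Cyp7b1 (-1.30, adjusted p = 0.00059) and Cyp2j10 (-1.17, adjusted p = 0.00145) followed. Aldh6a1 (-1.08, adjusted p = 9.14e-05) and Aldh5a1 (-1.01, adjusted p = 0.00202) also fell. All 10 astrocyte markers, 5 of 8 neuron markers and 7 of 9 oligodendrocyte markers fell and all 8 macrophage and microglia markers rose here too, and their part was not tested. Mitochondrial genes took 6.4 to 8.08% of counts in SCI_ALA and 8.59 to 15.7% in sham, whose part was not tested either.

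Mgst2 had 19.09, 23.53 and 29.95 CPM in SCI_ALA, against 2.885, 3.324 and 4.265 CPM in sham, a rise of 6.91-fold (adjusted p = 1.29e-05). Ugt1a1 had 52.73, 50.32 and 71.43 CPM in SCI_ALA, against 15.01, 17.49 and 16.99 CPM in sham, a rise of 3.52-fold (adjusted p = 2.28e-05). Neither gene's groups overlapped. Aldh3b1 (log2 fold change 1.88), Cyp2d3 (1.58), Mgst1 (1.0), Aldh16a1 (0.91), Cyp4v3 (0.75) and Aldh7a1 (0.69) rose with adjusted p of 0.0102 or less.

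Gsta4 had 66.39, 96.68 and 70.4 CPM in SCI_ALA, against 38.55, 57.54 and 43.38 CPM in sham (log2 fold change 0.74, SE 0.20, adjusted p = 0.0134), and lost its call without SCI_ALA 2 (adjusted p = 0.0702) and with the length trend removed (0.0637). Gsto1 (log2 fold change 0.65, adjusted p = 0.0326) lost its call without any of SCI_ALA 2, SCI_ALA 3, sham 1 and sham 3, with adjusted p of 0.0704 to 0.137. Fmo2 had 10.45, 7.843 and 27.95 CPM in SCI_ALA and 2.885, 1.741 and 8.529 CPM in sham, and its call (log2 fold change 1.81, SE 0.62, adjusted p = 0.0442) was lost when any library other than SCI_ALA 2 and sham 3 was left out, with adjusted p of 0.0504 to 0.21 and a log2 fold change of 1.06 without SCI_ALA 3. Aldh1l2 (log2 fold change 1.82, adjusted p = 0.02) lost its call without SCI_ALA 3 (adjusted p = 0.0746), sham 2 (0.0525) or sham 3 (0.0608). Cyp1b1 (log2 fold change 1.06, adjusted p = 0.0472) lost its call without SCI_ALA 1 (adjusted p = 0.0816), SCI_ALA 2 (0.163), SCI_Veh 1 (0.056), SCI_Veh 3 (0.0607), sham 1 (0.127) or sham 2 (0.169).

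Aldh3a2 (log2 fold change -0.49, adjusted p = 0.0224) lost its call without SCI_ALA 1 (adjusted p = 0.0849), SCI_ALA 3 (0.0781) or sham 1 (0.0721). Mgst3 (log2 fold change -0.56, adjusted p = 0.0465) lost its call without SCI_ALA 1, SCI_ALA 2, SCI_Veh 1, SCI_Veh 3, sham 1 or sham 2, with adjusted p of 0.0568 to 0.149. Sult4a1 had 211.9, 214.4 and 188.1 CPM in SCI_ALA, against 279.4, 407.7 and 359.8 CPM in sham, a fall of 1.70-fold (adjusted p = 0.0136), which was not called without SCI_ALA 3 (adjusted p = 0.0561). Gstm1, Ephx2 and Fmo1, called lower in SCI_Veh, had log2 fold changes of -0.13, 0.10 and 0.30 in SCI_ALA against sham, with overlapping groups and adjusted p of 0.622, 0.823 and 0.361. Gstt1, Gstk1, Gstz1, Gsta3, Gsta6, Gstm6, Cyp26b1 and Ephx4, also called lower in SCI_Veh, were not called in SCI_ALA against sham either. The rest called lower in SCI_Veh were called lower here too. The absence of a call does not show equal levels.

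Of 67 other genes of detoxification that were well measured (cofactor supply, regulators, further enzymes and transporters), 18 rose in SCI_Veh against sham (26.9%, against 19.5% of all genes tested) and 10 fell (14.9%, against 18.5%), with a median log2 fold change of 0.18 against 0.00 for all genes tested. In SCI_ALA against SCI_Veh, edgeR called 0 of them, against 0.12% of all genes tested, with 15 (22.4%) at an unadjusted p below 0.05, against 12.3% of all genes tested. Against sham, 18 rose in SCI_ALA (26.9%, against 17.3% of all genes tested) and 8 fell (11.9%, against 15.8%). Akr1b8, an aldo-keto reductase, had 40.17, 76.86 and 94.76 CPM in SCI_Veh, against 6.294, 12.35 and 5.864 CPM in sham (log2 fold change 3.12, SE 0.43, adjusted p = 0.000372). The transporter Abcc4 rose by a log2 fold change of 1.67, the retinol dehydrogenase Rdh10 by 1.65 and the transcriptional repressor Bach1 by 1.21 (adjusted p = 0.000822, 0.000246 and 0.045). The largest falls were in Hnmt, which methylates histamine (-2.44, adjusted p = 0.00336), in the transporters Abcc2 (-2.26, adjusted p = 0.0118), Slco1c1 (-1.98, adjusted p = 0.00991) and Slc22a8 (-1.70, adjusted p = 0.00319), and in the quinone reductase Nqo2 (-1.19, adjusted p = 0.0288).

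In SCI_ALA against sham, Akr1b8 (log2 fold change 3.51), the xanthine oxidoreductase Xdh (1.70), Rdh10 (1.54) and the nicotinamide methyltransferase Nnmt (1.48) were among the genes that rose most, with adjusted p of 0.0423 or less. Slco1c1 (-2.71), Slc22a8 (-1.74), Hnmt (-1.69), the transporter Slco1a4 (-1.14) and Ggt7 (-1.09), a member of the gamma-glutamyltransferase family, fell most, with adjusted p of 0.0326 or less. None of these genes passed between SCI_ALA and SCI_Veh, where the log2 fold change of Xdh was 0.78 and that of Nnmt 0.94 (adjusted p = 0.591 and 0.268).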

How the data were processed

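RNA from 9 rat spinal cord libraries, 3 per group by sample title, was sequenced. The authors deposited raw gene counts and FPKM values in separate tables. The submitters' processing notes name HISAT2 2.0.5, featureCounts 1.5.0-p3, DESeq2 1.20.0 and build Rnor_6.0, with no role stated. The library sizes behind the deposited FPKM were 0.8725 to 1.093 times the count totals. Replicates differed by more than sampling noise in every group (chi-square over its degrees of freedom 19.1 to 69.3).

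The counts were fitted in R 4.3.3 with edgeR 4.0.16 (filterByExpr by group with a minimum count of 10 and total of 15, TMM, robust quasi-likelihood fit of group means over 9 libraries), with limma 3.58.1 and DESeq2 1.42.0 as alternatives. The code was tested on simulated data. Figures used Python 3.11.15 and matplotlib 3.10.9.

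The members, the other gene lists, the tests and the naming rule were chosen with earlier results of these data known. Members named were a fixed list, the 10 rising and 10 falling called members with the largest change and at least 50 counts on average, all called members where 5 or fewer were called, and the 5 called genes with the largest change each way among other detoxification genes. Other members given with values, among them Gstm2, Gstm3, Gstm4, Gstm6, Gsta3, Gsta6, Gstk1, Gstt2, Gstz1, Ephx4, Aldh3a1, Cyp4f1, Cyp2e1 and Cyp26c1 (and Aldh7a1 and Cyp2j10 in 1 comparison each), were chosen after their values were seen. Some of the genes chosen by the rule are not reported here. Of the fixed list, Gstm5 had 2 counts in all, Aldh18a1 was under the minimum and Ugt1a6 is not analysed here. How reads that fit near-identical copies were counted is not known here, so changes of single paralogs are uncertain. Log2 fold changes from limma are of log2(FPKM + pseudocount), which understates changes of low genes.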

Additional observations from a re-analysis of the deposited data

How the results depend on the processing

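The counts of members called against sham, and those of members whose libraries did not overlap between SCI_ALA and SCI_Veh, stayed within 1.5 times their reported values in every alternative run. Of all called members, 34 of 42 kept their call in all alternatives in SCI_Veh against sham, 21 of 34 in SCI_ALA against sham and 0 of 3 in SCI_ALA against SCI_Veh. The last count, 3 members higher, was 0 with library totals only, 0 with a replicate block, 7 with only the 2 groups compared, 11 with DESeq2, 0 with limma on FPKM (pseudocount 1 or 0.1, filtered or not), 0 without sham 2 and SCI_ALA 3 together, and 0 to 6 when each library was left out. RLE scaling, removal of the length trend and a minimum of 50 counts gave 2, and no filter gave 4. Over all genes tested, 13 were called higher as reported, 0 with library totals or the replicate block and 0 to 1 with limma. There were 85 (0.529%) with only the 2 groups, 223 (1.42%) with DESeq2 and 8 (0.0472%) without sham 2 and SCI_ALA 3. Leaving out each library gave 0 to 52 (0.304%). RLE scaling gave 12 (0.072%), length trend removal 11 (0.066%), 50 counts 8 (0.0594%) and no filter 26 (0.108%). DESeq2 called 1 member lower where edgeR called 0. The cause was not tested. Adjusted p ranged from 1.25e-05 to 0.215 for Sult1a1, 1.04e-05 to 0.173 for Sult1d1 and 8.85e-06 to 0.196 for Fmo1.

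Deviations of same-numbered libraries correlated at -0.0855 to 0.18, and those of libraries with different numbers at -0.167 to 0.166. The pairs numbered 1 had 0.134, 0.18 and 0.0954. Each deviation is from a mean of only 3 libraries, so these values cannot decide whether replicate numbers pair the libraries.

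Among the called members and the others named with values, signs turned only for members that were not called. For the members named after their values were seen, these alternatives were added later. In SCI_Veh against sham, the log2 fold change of Gstp1 (-0.00 as reported) was 0.13 with library totals, 0.014 with no filter, 0.030 with the replicate block, 0.046 with limma at a pseudocount of 1, filtered or not, and 0.046 at 0.1, 0.33 without sham 2 and SCI_ALA 3, and -0.16 to 0.33 when each library was left out. Leaving out each library in turn gave -0.057 to 0.31 for Aldh1a2, -0.14 to 0.32 for Ephx1, -1.16 to 0.16 for Fmo2 and -0.099 to 0.43 for Cyp39a1. In SCI_ALA against SCI_Veh it gave -0.053 to 0.19 for Mgst1, -0.48 to 0.12 for Cyp1b1, -0.012 to 0.72 for Sult2b1, -0.93 to 1.68 for Cyp4f4 and -3.75 to 0.70 for Gstm3, and in SCI_ALA against sham -0.27 to 0.045 for Gstm1 and -0.14 to 0.50 for Ephx2. Without sham 2 and SCI_ALA 3 together, SCI_ALA against SCI_Veh gave -0.044 for Mgst1, 0.055 for Cyp1b1, -0.0024 for Sult2b1 and 0.045 for Cyp4f4, and removal of the length trend gave -0.12 for Mgst1.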
